A study of Mus musculus with 2 samples.

Results

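The respiratory chain genes described here were every row of the UMI table whose symbol starts with mt-, Ndufa, Ndufb, Ndufc, Ndufs, Ndufv, Uqcr, Cox4, Cox5, Cox6, Cox7, Cox8 or Atp5. The rule found 97 of 11691 genes, of which 13 are encoded by mitochondrial DNA and 84 by nuclear DNA. The nuclear members were 7 core and 29 accessory subunits of complex I, 7 complex I assembly factors (Ndufaf1 to Ndufaf7), 8 subunits of complex III, 16 of complex IV, 15 of complex V, and 2 genes that are only named after ATP synthase (Atp5s and Atp5sl). Ndufa4, which carries a complex I name, was counted with complex IV, to which its protein is assigned.

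The cells came from explants of C57/BL6 mouse concepti at embryonic day 8.5 with 5 to 7 somite pairs, pooled and cultured for 9 to 10 days with SCF, IL-3 and FLT3 ligand, each at 100 ng/ml. Intraembryonic tissue gave the Em-Ex library and yolk sac gave the YS-Ex library, both from cells sorted as CD31+CD45+c-Kit+CD41-, with 1 library per tissue and no genetic modification named in the labels. The table held 3504 Em-Ex and 3037 YS-Ex barcodes, and all 6541 were used, including those over the 5% limit on mitochondrial UMIs that the study's methods set. The comparison by tissue asks how cells from embryo and yolk sac cultures differ, and with 1 library each, tissue and library cannot be told apart.

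The respiratory chain sits in the inner mitochondrial membrane. Complexes I, III and IV pass electrons from NADH to oxygen and pump protons, and complex V, the ATP synthase, uses the proton gradient to make ATP. Mitochondrial DNA encodes 13 proteins of these complexes, while all other subunits are encoded in the nucleus and imported, so a working complex needs transcripts from both genomes.

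Em-Ex held 48630888 UMIs and YS-Ex 34566242 UMIs, with medians of 11728.5 and 9839 UMIs per cell. A level is given as UMIs per 1000000 UMIs, abbreviated CPM, taken over all UMIs for an mt- gene and over UMIs outside mt- genes for a nuclear gene, and is not divided by gene length. Ranges in parentheses after a value are exact 95% intervals that cover counting error only. A gene counted as higher when the ratio of pooled levels was at least 25% above 1 and as lower when it was at least 20% below 1, among genes with a mean level of at least 20 CPM over the groups compared, and no test was run because cells of 1 library are not replicates. In each library, genes with a UMI in fewer than 30 barcodes were listed at 0, which touched 241 genes in Em-Ex and 725 in YS-Ex, and of the 97 members only Cox4i2 in YS-Ex. The 9 mast cell markers, Kit among them, were all above 0 in both libraries and summed to 28393 CPM in Em-Ex against 44998 CPM in YS-Ex, while 5 erythroid markers summed to 819 against 289 CPM, 4 neutrophil progenitor markers to 436 against 42.8 CPM, 6 macrophage markers to 184 against 106 CPM, and 3 stromal markers to 13.2 CPM against entries of 0. The part of these cell types in the ratios by library was not tested. The libraries shared 35 barcode sequences. The level filter used the mean of the groups compared, so a gene could pass it through 1 group alone.

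Mitochondrial transcripts took a smaller share of the UMIs in Em-Ex than in YS-Ex, and nuclear respiratory transcripts a larger one. The mt- genes held 3.23% of all UMIs in Em-Ex (3.22–3.23) and 4.11% in YS-Ex (4.11–4.12). The nuclear members summed to 30441 CPM in Em-Ex against 26325 CPM in YS-Ex, a ratio of 1.16 (1.15–1.16). Em-Ex thus had 1.10 mt- UMIs for each nuclear member UMI, and YS-Ex had 1.63. Over single cells the mt- share had a median of 3.23% in Em-Ex, with quartiles of 2.70% and 3.96% and extremes of 0.114% and 20.9%. In YS-Ex the median was 4.05%, with quartiles of 3.27% and 5.35% and extremes of 0.0799% and 24.2%, so the interquartile ranges of the libraries overlapped. Cells over 5% numbered 353 in Em-Ex, or 10.1% (9.10–11.1), and 917 in YS-Ex, or 30.2% (28.6–31.9). Without cells outside the limits of the methods (1000 to 5000 genes and at most 5% mt- UMIs), the log2 ratio of the mt- share moved from -0.35 to -0.18, while that of the nuclear sum went from 0.21 to 0.18.

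**Figure D1:**
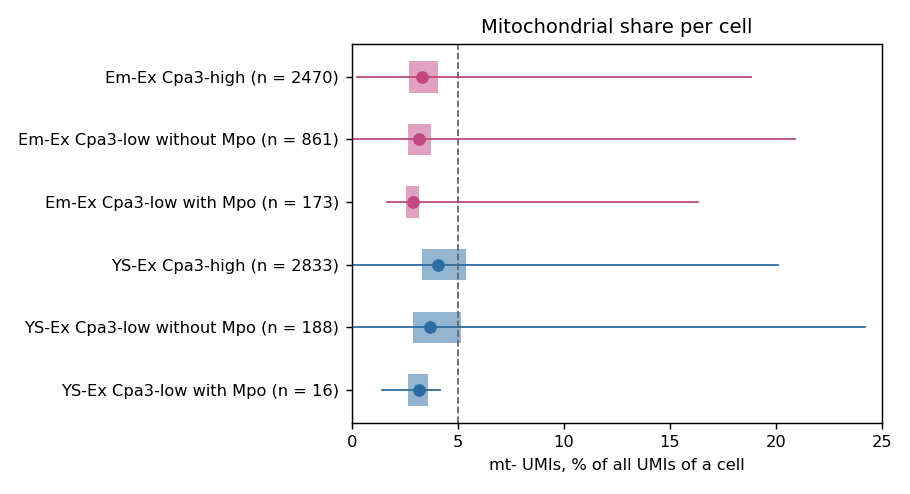
Mitochondrial share per cell, as mt- UMIs in % of all UMIs of a cell, by library, Cpa3 class and Mpo class (Em-Ex in pink, YS-Ex in blue), with medians as points, quartiles as boxes, extremes as lines and 5% as a dashed line. The YS-Ex boxes of Cpa3-high cells and of Cpa3-low cells without Mpo reach past 5%, while all 3 Em-Ex boxes end below it.

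The mt- genes did not differ by 1 common factor. Of the 13, 10 were lower in Em-Ex and 0 were higher, where 31.2% of the 4903 genes tested were lower. Among the lower genes mt-Nd6 reached the level filter through YS-Ex alone. mt-Cytb, the mitochondrial subunit of complex III, had 2717 CPM in Em-Ex against 2754 CPM in YS-Ex, a ratio of 0.987 (0.978–0.995). mt-Nd1, a membrane subunit of complex I, had 3210 and 3261 CPM, and mt-Atp6, the ATP synthase subunit next to the rotor, had 7680 and 8259 CPM, a ratio of 0.930. These 3 genes did not pass. mt-Co1, the catalytic subunit of complex IV, had 5473 CPM in Em-Ex against 9025 CPM in YS-Ex, a ratio of 0.606 (0.603–0.610). mt-Co3 had 6511 against 9102 CPM (ratio 0.715) and mt-Co2, which receives electrons from cytochrome c, had 3824 against 4820 CPM (0.793). Complex IV transcripts were therefore 48.9% of the mt- UMIs in Em-Ex and 55.8% in YS-Ex, those of complex V 23.9% and 20.3%, those of complex I 18.8% and 17.2%, and mt-Cytb 8.41% and 6.70%.

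The other complex I genes of mitochondrial DNA were all lower in Em-Ex. mt-Nd4 had 1567 against 1972 CPM (ratio 0.795), mt-Nd2 767 against 970 CPM (0.791), mt-Nd3 326 against 461 CPM (0.707) and mt-Nd5 129 against 244 CPM (0.529). The largest gaps were at the lowest levels. mt-Nd4l had 51.7 CPM in Em-Ex against 106 CPM in YS-Ex (0.487), mt-Atp8 had 28.7 and 102 CPM (0.281) and mt-Nd6, the only one of these proteins encoded on the opposite strand, had 10.6 and 38.4 CPM (0.275, with bounds of 0.248 and 0.305). In the annotation mt-Atp8 overlaps mt-Atp6 by 43 bases, mt-Nd4l overlaps mt-Nd4 by 7 bases and mt-Nd5 overlaps mt-Nd6 on the other strand by 14 bases. How the counting treated reads in these overlaps, and its part in the levels of the low members, was not tested.

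Among nuclear members, 34 of the 75 tested were higher in Em-Ex and 2 were lower, beside 31% and 31.2% of all 4903 genes tested. At 1.5-fold, over all members with the mt- genes, 16 were higher and 5 lower, beside 16.6% and 21% of genes tested. The median log2 ratio of the nuclear members tested was 0.31, beside 0.04 over all genes tested. The 9 nuclear members under the level filter were Ndufaf1, Ndufaf5, Ndufaf6, Ndufaf7, Cox4i2, Cox6b2, Cox7a1, Atp5s and Atp5sl, at 7.10 to 33.6 CPM in Em-Ex and no more than 14.6 CPM in YS-Ex. The 7 core subunits of complex I, which carry its electron path, had the largest summed ratio among the groups of nuclear members, at 1.55 (1.52–1.57), with 6 of 7 higher. Ndufv1, which binds NADH, had 75.4 CPM in Em-Ex against 41.7 CPM in YS-Ex, a ratio of 1.81 (1.70–1.92). Ndufs8, an iron-sulfur subunit, had 136 and 78.6 CPM (ratio 1.74), Ndufs3 had 138 and 89.6 CPM (1.53), Ndufv2 had 197 and 122 CPM (1.62), and Ndufs7, the core subunit of highest level, had 203 and 144 CPM (1.41). Ndufs1, the largest iron-sulfur subunit, was the exception with 30.9 and 29.7 CPM (1.04, 0.958–1.13).

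The 29 accessory subunits of complex I, which surround the core, summed to a ratio of only 1.09 (1.09–1.10). Of these, 11 were higher, and both lower nuclear members were among them, beside 31% higher and 31.2% lower over all genes tested. Ndufab1, the mitochondrial acyl carrier protein, had 236 CPM in Em-Ex against 135 CPM in YS-Ex (ratio 1.74), and Ndufa9 had 97.4 and 57.3 CPM (1.70). On the other side, Ndufa1, a small membrane subunit, had 234 and 327 CPM (0.716, 0.697–0.735), and Ndufa3 had 308 and 397 CPM (0.776). Ndufa6, the accessory subunit with the highest level, had 495 and 590 CPM (0.838). Of the 7 assembly factors, which are not part of the finished enzyme, only 3 reached the level filter. Ndufaf4 had 45.8 and 28.6 CPM (1.60), Ndufaf2 had 38.9 and 30.2 CPM (1.29) and Ndufaf3 had 40.1 and 37.1 CPM (1.08).

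Complex III summed to a ratio of 1.09 with 4 of 8 members higher, beside 31% of all genes tested. Uqcrc1, a large core protein on its matrix side, had 201 CPM in Em-Ex against 97.0 CPM in YS-Ex, a ratio of 2.07 (1.99–2.15). Its partner Uqcrc2 had 155 and 97.9 CPM (1.58) and the Rieske iron-sulfur protein Uqcrfs1 had 246 and 158 CPM (1.55). The small subunits Uqcrq, with 468 and 545 CPM (0.859), and Uqcrh, the hinge protein and the highest of the complex with 800 and 912 CPM (0.877), lay on the other side of 1. A single complex therefore held ratios on both sides.

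Complex IV summed to 1.14 with 3 of the 13 tested members higher, a share below the 31% of all genes tested. Cox8a had the highest level of all nuclear members, 1283 CPM in Em-Ex against 1191 CPM in YS-Ex (1.08). Cox4i1, the usual form of the largest nuclear subunit, had 1230 and 986 CPM (1.247, 1.23–1.26, just under the limit for a higher member). Ndufa4 had 617 and 447 CPM (1.38), Cox5a 618 and 468 CPM (1.32), Cox7b 489 and 394 CPM (1.24) and Cox6c 818 and 859 CPM (0.952). Cox7a2l, a factor for joining complexes III and IV, had 614 and 608 CPM (1.01). The remaining higher member, Cox6a2, reached the level filter through Em-Ex alone and is described with the isoforms.

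Complex V summed to 1.22 with 8 of 15 higher, beside 31% of all genes tested. Atp5b, the catalytic beta subunit, had 926 CPM in Em-Ex against 481 CPM in YS-Ex, a ratio of 1.93 (1.89–1.96), and Atp5a1, the alpha subunit beside it, had 488 and 310 CPM (1.58). The 3 genes Atp5g1, Atp5g2 and Atp5g3 encode the same mature rotor subunit c. Atp5g1 had 586 and 353 CPM (1.66), Atp5g2 had 797 and 622 CPM (1.28) and Atp5g3 had 312 and 260 CPM (1.20). Atp5f1, a subunit of the outer stalk and the highest of the complex, had 1012 and 897 CPM (1.13), and Atp5e, the small epsilon subunit, had 649 and 801 CPM (0.810). Many nuclear members have near-identical pseudogene copies, and the effect of such copies on the counting was not tested.

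**Figure D2:**
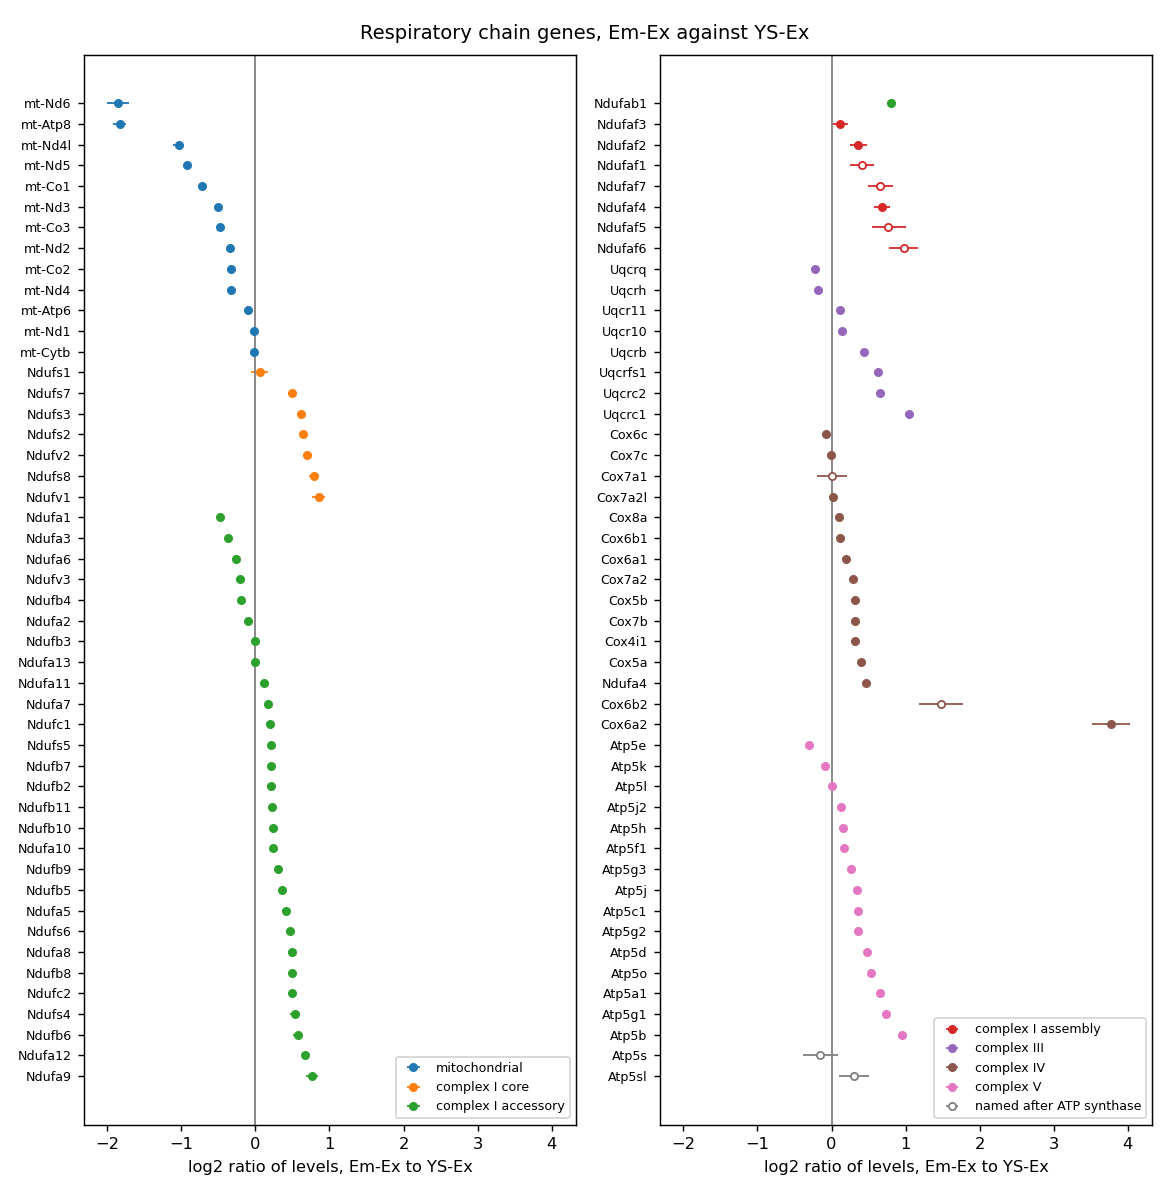
Log2 ratio of pooled levels in Em-Ex to those in YS-Ex for all members but Cox4i2, grouped by complex and ordered by ratio within it, where bars are 95% counting intervals, open points are members under 20 CPM on average, and the vertical line marks equal levels. All 13 mt- genes lie at or left of the line, and most nuclear members lie right of it.

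Cpa3-low cells were more frequent in Em-Ex, so the comparison was repeated in Cpa3-high cells alone, a choice made after seeing the data. Cpa3 encodes a mast cell carboxypeptidase, and a cell counted as Cpa3-high at 40 or more Cpa3 UMIs per 10000. Em-Ex had 2470 such cells and YS-Ex 2833. Among them 24 of 74 nuclear members tested were higher in Em-Ex and 1, Uqcrq, was lower (ratio 0.789), beside 26.6% and 31% of all genes tested. Among members tested, ratios were largest for Uqcrc1 at 173 and 95.9 CPM (1.80), Ndufa9 at 97.2 and 57.7 CPM (1.69), Atp5b at 801 and 476 CPM (1.68) and Ndufv1 at 61.8 and 41.3 CPM (1.498). The median log2 ratio of the nuclear members tested was 0.26, beside 0.04 over all genes tested. Of the mt- genes, 8 of 13 were lower. The mt- share was 3.28% in Em-Ex Cpa3-high cells and 4.14% in YS-Ex Cpa3-high cells.

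The ratios of the nuclear members moved with the length of their annotated transcripts. Spearman's correlation between length and log2 ratio was 0.49 over the 75 members, while it was -0.49 over the 4622 other genes with a length. These are descriptions across genes of the same 2 libraries, and genes are not replicates. Members of up to 700 bases had a median log2 ratio of 0.15 (29 genes), those of 700 to 1200 bases 0.32 (23 genes) and longer ones 0.63 (23 genes). The corresponding medians of other genes were 0.14, 0.25 and -0.01. In Cpa3-high cells alone this correlation was 0.49 for the members and -0.54 for the others. The long members include the core and catalytic subunits named above (Uqcrc1, Atp5b, Ndufv1) and the short ones the small subunits Ndufa1, Ndufa3 and Atp5e, so length and role cannot be told apart among them.

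**Figure D3:**
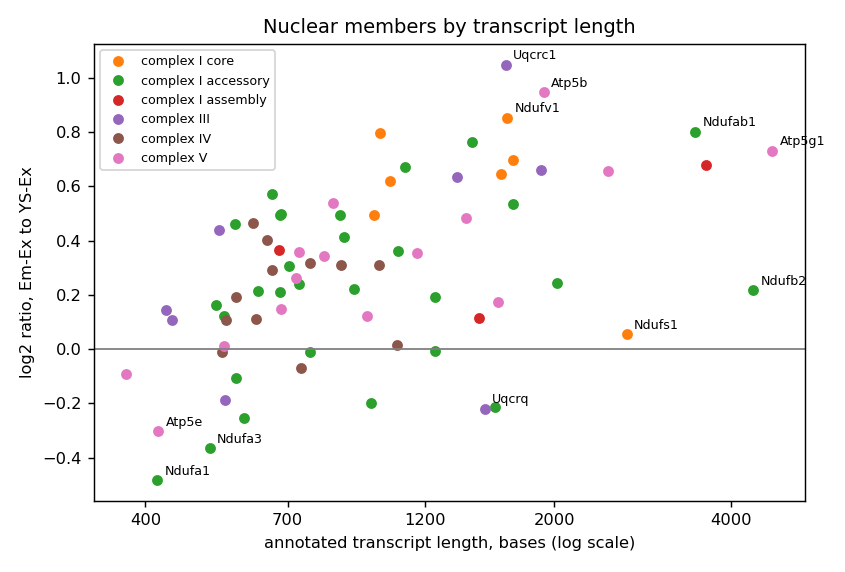
Annotated transcript length in bases (log scale) against the log2 ratio of levels, Em-Ex to YS-Ex, for nuclear members at 20 CPM or more, coloured by complex; Cox6a2, far above the others, is left out. The named short members Ndufa1 and Atp5e lie below 0, but the shortest length class of the text had a median of 0.15. The named long members Uqcrc1 and Atp5b lie near 1, while the longest class had a median of 0.63. Uqcrq, Ndufs1 and the long Ndufb2 are among the members off that trend.

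Genes that work beside the chain were read from lists of related pathways, where the share over all genes tested was 31% higher and 31.2% lower. All 6 genes of complex II and cytochrome c were higher in Em-Ex, led by Cyc1, the cytochrome c1 of complex III, with 162 and 77.3 CPM (2.09). Of 13 citric acid cycle genes 11 were higher and 1 lower, from Fh1, fumarate hydratase, with 66.3 and 27.8 CPM (2.38), to Ogdh, with 30.3 and 38.6 CPM (0.785). Of 8 carrier and coupling genes 7 were higher, led by Vdac1, a pore of the outer membrane, with 171 and 104 CPM (1.65). Of 12 assembly factors tested 4 were higher, a share near that over all genes, and 0 lower, led by Atpaf2 with 28.6 and 17.3 CPM (1.65). Of 4 genes for the upkeep and expression of mitochondrial DNA, Tfam, which packages that DNA, was higher with 38.8 and 25.01 CPM (1.55), Ssbp1 was higher (1.35), and Polg, its polymerase, was lower with 15.7 and 27.9 CPM (0.561). Among transcriptional regulators only Yy1 reached the level filter, with 53.9 and 95.2 CPM (0.566).

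Within Em-Ex, Cpa3-high and Cpa3-low cells differed little in the sums and more in single subunits. The 1034 Cpa3-low cells had 3.16% mt- UMIs and 31669 CPM of nuclear members, and the 2470 Cpa3-high cells had 3.28% and 29650 CPM. The log2 ratio of the mt- share was 0.054, but -0.013 among cells of 8000 to 16000 UMIs and 0.0066 without the cells with Mpo described next, so its direction is not settled. The nuclear log2 ratio of Cpa3-high to Cpa3-low cells was -0.10 with these totals, 0.09 when scaled by the median ratio over genes, and 0.00 among cells of 8000 to 16000 UMIs, so it has no settled direction either. Cpa3-low cells were deeper, at a median of 16875 UMIs against 10540. They held 173 cells with at least 5 UMIs of Mpo, the myeloperoxidase of neutrophil granules, per 10000, with a mt- share of 2.84% and a nuclear member share of 3.29%, against 3.26% and 3.13% in the other 861. Of all cells in either class, 338 in Em-Ex and 140 in YS-Ex lay near the Cpa3 limit, between 30 and 50 Cpa3 UMIs per 10000.

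By subunit, 4 of 76 nuclear members were higher and 22 lower in Em-Ex Cpa3-high cells, beside 23.6% and 42% of all 4750 genes tested. The lower members Cox6a2 and Cox4i2 reached the level filter through the Cpa3-low cells alone. The median log2 ratio was -0.22 for the members and -0.19 for all genes tested, and with the mt- genes included, scaling by the median ratio changed 4 higher and 26 lower members to 13 higher and 12 lower. At 1.5-fold 3 were higher and 7 lower, beside 15.4% and 26.7% of genes tested. The 4 higher members were Ndufa6 with 582 CPM in Cpa3-high and 360 CPM in Cpa3-low cells (ratio 1.61), Atp5f1 with 1186 and 741 CPM (1.60), Ndufa1 with 272 and 176 CPM (1.55) and Ndufa3 with 336 and 264 CPM (1.27). The low side held Ndufaf4 with 33.1 and 65.5 CPM (0.506), Ndufab1 with 178 and 325 CPM (0.550), Ndufv1 with 61.8 and 96.3 CPM (0.642), Atp5g1 with 481 and 749 CPM (0.642) and Uqcrc1 with 173 and 243 CPM (0.712). Ndufs3 had the highest ratio of the core subunits, with 129 and 150 CPM (0.859). Cox8a, with 1266 and 1310 CPM (0.966), and Cox4i1, with 1204 and 1270 CPM (0.948), were near equal. Of 12 mt- genes tested 4 were lower in Cpa3-high cells, from mt-Atp8 with 25.2 and 34.2 CPM (0.739) to mt-Nd4l with 46.9 and 59.0 CPM (0.796), while mt-Atp6 had 7926 and 7298 CPM (1.09).

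YS-Ex had far fewer Cpa3-low cells, and whether its differences between the classes are unlike those of Em-Ex was not tested. Its 204 Cpa3-low cells had 3.78% mt- UMIs (3.76–3.81) and 26228 CPM of nuclear members, and its 2833 Cpa3-high cells had 4.14% and 26333 CPM, a nuclear ratio of 1.004 (0.996–1.01). The log2 ratio of the mt- share was 0.13, but 0.082 as a mean over cells and -0.0028 at a Cpa3 limit of 80, so its direction is not settled. Of 75 nuclear members 5 were higher and 5 lower in Cpa3-high cells, beside 17% and 28.1% of all 5179 genes tested, and 0 of 13 mt- genes passed. At 1.5-fold 3 members were higher and 1 lower, beside 7.84% and 13.6%. Higher were Ndufaf3 with 38.2 and 23.1 CPM (1.66, 1.27–2.21), Ndufb4 with 286 and 182 CPM (1.57), Atp5f1 with 920 and 608 CPM (1.51), Ndufa1 with 333 and 250 CPM (1.33) and Ndufa3 with 403 and 318 CPM (1.27). Lower were Cox6a2, Ndufs1 with 28.8 and 41.2 CPM (0.699), Ndufab1 with 131 and 187 CPM (0.700), Ndufaf4 with 27.8 and 38.7 CPM (0.718) and Atp5g1 with 344 and 464 CPM (0.742). Cox6a2, the lower member at 1.5-fold, reached the level filter through the Cpa3-low cells alone. Atp5f1, Ndufa1 and Ndufa3 were higher and Cox6a2, Ndufab1, Ndufaf4 and Atp5g1 lower in Cpa3-high cells of both libraries. Each library was set against its own Cpa3-low cells. The share of all genes tested that passed in both libraries was not counted. Ndufs3 had 90.1 and 83.2 CPM (1.08), again the highest ratio of the core subunits. Ndufb4 had 245 and 238 CPM (1.03) in Em-Ex, and whether the libraries differ there was not tested.

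Other cell types moved with these classes. The mast cell markers summed to 43183 CPM in Em-Ex Cpa3-high and 5448 CPM in Em-Ex Cpa3-low cells, and to 47651 and 11442 CPM in YS-Ex. Cpa3, which sets the classes, is among these markers, so part of this difference is fixed by the split. The 4 neutrophil progenitor markers in the table summed to 19.0 and 1083 CPM in Em-Ex and to 2.995 and 546 CPM in YS-Ex, where Elane and Ctsg were at 0. The 6 macrophage markers summed to 83.3 and 341 CPM in Em-Ex and to 31.4 and 1053 CPM in YS-Ex. The 5 erythroid markers, 4 of them globin genes, summed to 96.9 and 1938 CPM in Em-Ex and to 199 and 1427 CPM in YS-Ex, where Alas2 was at 0. The 3 megakaryocyte markers summed to 40.01 and 55.1 CPM in Em-Ex and to 31.6 and 483 CPM in YS-Ex, where Gp9 was at 0. The 3 basophil markers summed to 591 and 125 CPM in Em-Ex and to 407 and 173 CPM in YS-Ex. The 3 stromal markers summed to 2.62 and 29.6 CPM in Em-Ex and were at 0 in YS-Ex. Their part in the differences between Cpa3 classes was not tested.

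The pathway lists are read beside 23.6% higher and 42% lower over all genes tested in Em-Ex, and 17% and 28.1% in YS-Ex. In Em-Ex Cpa3-high cells 5 of 6 complex II and cytochrome c genes were lower, led by Cyc1 with 120 and 226 CPM (0.532), as were 10 of 13 citric acid cycle genes, led by Idh3a with 45.0 and 88.5 CPM (0.509), and all 4 genes for mitochondrial DNA that were tested, led by Tfam with 27.4 and 56.5 CPM (0.485). Of 8 carriers 3 were lower, led by Vdac3 with 99.0 and 167 CPM (0.594), and Ucp2, the uncoupling protein of blood cells, was higher with 236 and 139 CPM (1.70). Of 14 assembly factors 2 were higher, led by Tmem126b with 24.0 and 16.5 CPM (1.45), and 3 lower, led by Sco2 with 19.1 and 29.5 CPM (0.649). The lower shares of carriers and assembly factors were below that over all genes. Nrf1, a regulator of respiratory genes, had 17.5 and 26.2 CPM (0.667). In YS-Ex 2 of 6 complex II and cytochrome c genes were lower, led by Cycs with 155 and 249 CPM (0.622), with 3 of 13 citric acid cycle genes (Dlst, 0.649), 2 carriers (Vdac3, 0.737) and Tfam with 23.7 and 41.6 CPM (0.570), and 2 of 12 assembly factors were higher (Sdhaf4, 1.45). These YS-Ex counts are small and near or below the shares over all genes.

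Subunit isoforms gave the sharpest contrast between the classes. Complex IV has alternative forms of several small subunits. Cox6a2 is known from heart and skeletal muscle, Cox4i2 from lung and from low oxygen, Cox6b2 from testis and Cox7a1 from muscle, while Cox6a1, Cox4i1, Cox6b1 and Cox7a2 are the common forms. In the GRCm38 annotation Cox6a2 lies on the minus strand at chr7:128205435-128206387 and Cox4i2 on the plus strand at chr2:152754173-152765037. To set common forms beside restricted ones, the 250 bases before the RefSeq start on GRCm38.p6 are shown. This was done for the forms in these families with a matched promoter, except Cox6b1. They are Cox6a1 at chr5:115348959-115349208 (minus), Cox7a2 at chr9:79759854-79760103 (minus), Cox6b2 at chr7:4753095-4753344 (minus) and Cox7a1 at chr7:30183921-30184170 (plus), each 5′ to 3′ on the gene's strand. Capitals mark the letters GCGCATGCGC, a site of the factor NRF1, and CCGGAAG or its reverse complement, a core of ETS family sites.
Cox6a1: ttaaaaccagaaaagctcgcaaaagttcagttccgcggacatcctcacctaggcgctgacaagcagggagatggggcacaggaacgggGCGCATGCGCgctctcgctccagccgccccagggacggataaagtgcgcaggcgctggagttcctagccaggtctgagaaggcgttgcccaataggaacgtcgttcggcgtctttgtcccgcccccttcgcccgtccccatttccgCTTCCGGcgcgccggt
Cox7a2: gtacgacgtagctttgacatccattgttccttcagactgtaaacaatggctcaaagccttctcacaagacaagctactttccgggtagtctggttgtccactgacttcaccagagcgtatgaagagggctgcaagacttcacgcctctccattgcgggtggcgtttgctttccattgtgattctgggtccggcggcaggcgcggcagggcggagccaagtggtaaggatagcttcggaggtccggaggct
Cox6b2: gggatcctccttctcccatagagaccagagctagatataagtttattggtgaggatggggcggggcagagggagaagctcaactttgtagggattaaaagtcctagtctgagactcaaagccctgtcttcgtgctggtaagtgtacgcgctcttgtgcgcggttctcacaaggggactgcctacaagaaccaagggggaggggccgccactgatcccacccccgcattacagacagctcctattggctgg
Cox7a1: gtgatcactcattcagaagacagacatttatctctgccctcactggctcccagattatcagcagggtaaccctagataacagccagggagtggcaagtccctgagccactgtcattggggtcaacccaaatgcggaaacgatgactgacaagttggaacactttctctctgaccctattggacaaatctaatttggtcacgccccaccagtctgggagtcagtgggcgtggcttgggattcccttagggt
Of these only Cox6a1 holds either motif, while Cox6b1, not shown, holds the ETS letters. Both strands were searched in the 71 of 84 nuclear members that the table matched. The NRF1 letters were in 5 of 71, or 7.04%, namely Cox6a1, Atp5g2, Atp5k, Ndufa11 and Ndufaf4, beside 0.861% of all other 26954 promoters and 1.98% of the 8791 other genes in the UMI table. The ETS letters were in 16.9%, beside 7.80% and 16.7%. CCAAT was in 43.7%, beside 37.5% and 40.9%, and TATAAA in 7.04%, beside 14.3% and 7.39%. None of these 4 motifs contains another, and a match describes only the letters in this window.

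Cox6a2 had 54.2 CPM in Em-Ex against 3.98 CPM in YS-Ex over all cells, a ratio of 13.6 (11.4–16.3). Within Em-Ex it had 135 CPM in Cpa3-low and 2.38 CPM in Cpa3-high cells, and within YS-Ex 43.6 and 0.846 CPM. Its level followed the Cpa3 class in both libraries, with ratios of Cpa3-high to Cpa3-low of 0.018 and 0.019. As a share of Cox6a1 and Cox6a2 UMIs together, Cox6a2 took 17.3% (16.7–17.9) in Em-Ex Cpa3-low cells, 6.77% (5.57–8.13) in YS-Ex Cpa3-low cells, 0.321% in Em-Ex Cpa3-high and 0.138% in YS-Ex Cpa3-high cells. Cox6a1 itself hardly differed, with 644 CPM in Em-Ex Cpa3-low and 737 CPM in Em-Ex Cpa3-high cells, and 601 and 614 CPM in YS-Ex. UMIs of Cox6a2 were in 336 of 1034 Em-Ex Cpa3-low cells (32.5%) and 22 of 204 YS-Ex Cpa3-low cells (10.8%), but in 44 of 2470 (1.78%) and 16 of 2833 (0.565%) Cpa3-high cells, whose median depths were 10540 and 9884 UMIs. Single Cpa3-high cells held up to 10 Cox6a2 UMIs in Em-Ex and 5 in YS-Ex, and what part of these low shares is free RNA was not tested. After thinning each cell to 3000 UMIs, for which all cells were deep enough, the shares were 16.0%, 4.90%, 0.405% and 0.318%.

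Cox4i2 was above 0 in Em-Ex alone, with 33.6 CPM, while its YS-Ex entries were all 0 under the limit of 30 barcodes, so its level there is unknown below that limit. It had 83.5 CPM in Em-Ex Cpa3-low and 1.33 CPM in Em-Ex Cpa3-high cells. Of the Cox4i1 and Cox4i2 UMIs it took 6.17% (5.88–6.48) in Cpa3-low and 0.110% (0.0779–0.151) in Cpa3-high cells. Its UMIs were in 336 of 1034 Cpa3-low cells and 24 of 2470 Cpa3-high cells, and after thinning in 12.2% and 0.283%. Cox4i1 was the main form in each class.

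Cox6b2 and Cox7a1 were under the level filter, so neither is counted as higher or lower. Cox6b2 had 20.4 CPM in Cpa3-low against 2.80 CPM in Cpa3-high cells in Em-Ex and 7.82 against 3.16 CPM in YS-Ex, the value of 7.82 CPM resting on 19 UMIs. Cox7a1 went the other way in Em-Ex, with 6.13 CPM in Cpa3-low and 12.5 CPM in Cpa3-high cells (ratio of high to low 2.04, 1.65–2.55), while its YS-Ex levels of 8.65 and 10.1 CPM had an interval of the ratio that spans 1 (0.750–1.91). Their common partners, which reached the filter, had 695 and 747 CPM (Cox6b1) and 559 and 468 CPM (Cox7a2) in Em-Ex and passed in neither direction.

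**Figure D4:**
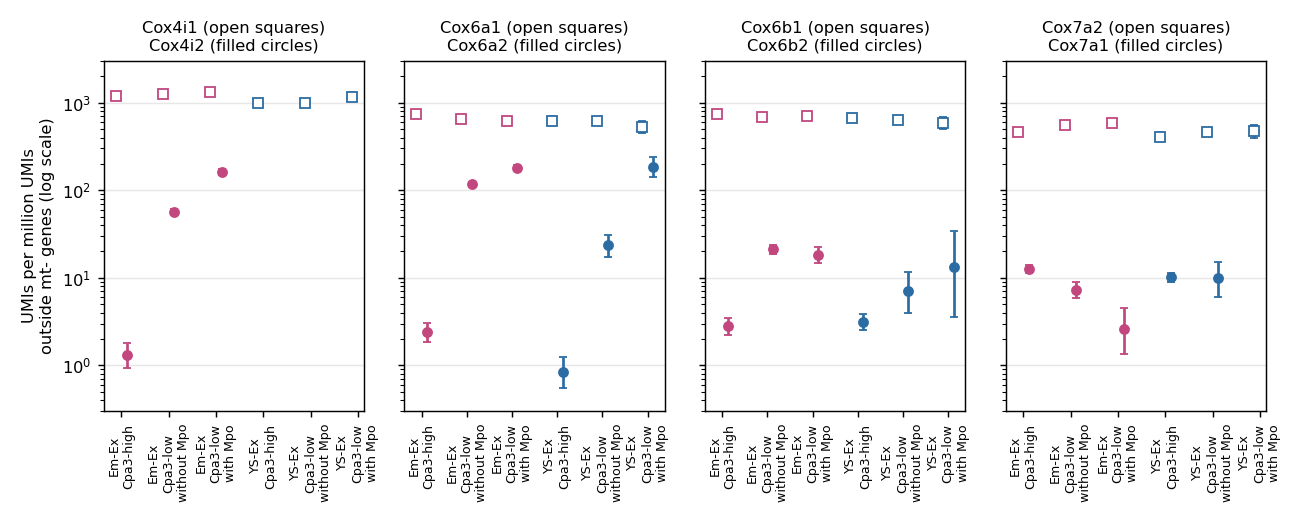
Levels of common (open squares) and restricted (filled circles) complex IV isoforms in CPM on a log scale, by library, Cpa3 class and Mpo class. Intervals are 95% counting intervals, with Em-Ex in pink and YS-Ex in blue. Cox7a1 in the 16 YS-Ex cells with Mpo is not drawn because it had no UMIs there. Cox4i2 is not drawn in any YS-Ex class because its YS-Ex entries fell under the barcode limit. Its level in YS-Ex is therefore unknown below that limit. The squares are nearly level, and Cox6a2 and Cox4i2 are lowest in Cpa3-high cells.

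Cox6a2 and Cox4i2 were highest in Cpa3-low cells with Mpo. In the 173 such Em-Ex cells Cox6a2 took 22.8% (21.5–24.2) of its family and Cox4i2 10.9% (10.2–11.7), against 15.4% and 4.36% in the 861 without Mpo. In YS-Ex there were 16 such cells, of which 7 had a barcode shared with Em-Ex, and Cox6a2 took 26.2% (20.4–32.6), against 3.70% (2.76–4.85) in the 188 without Mpo. The first of these shares rests on 56 Cox6a2 UMIs in 12 cells, with up to 15 in 1 cell. The second rests on 50 UMIs in 10 cells, with up to 20 in 1 cell. Cells with Mpo were deeper, at medians of 26526 and 23173.5 UMIs against 14812 and 8116. Without shared barcodes Cox6a2 took 6.74% in YS-Ex Cpa3-low cells, close to the value with them. Among Em-Ex Cpa3-low cells, 189 had UMIs of both isoforms, 147 of Cox6a2 alone, 147 of Cox4i2 alone and 551 of neither. Mpo had 765 CPM in cells with both, 274 CPM with Cox6a2 alone, 705 CPM with Cox4i2 alone and 79.0 CPM with neither. Prtn3, another granule protease, had 1216, 504, 870 and 72.8 CPM in that order. Lyz2, the lysozyme of macrophages and later neutrophils, had 26.0, 236, 237 and 394 CPM, and Gata2, a mast and progenitor factor, 21.7, 64.1, 47.4 and 316 CPM. Median depth was 27303, 20154, 20831 and 11426 UMIs in that order, and its part in which cells showed an isoform was not tested.

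Cells over 5% mt- UMIs differed from the rest in the nuclear members as well as in the mt- genes that define them. By construction the mt- sum was higher, 2.31-fold in Em-Ex and 2.05-fold in YS-Ex, led by mt-Atp6 with 17744 and 7117 CPM in Em-Ex and by mt-Cytb with 4968 and 2262 CPM in YS-Ex. The nuclear members went the other way, with 27235 against 30613 CPM in Em-Ex (0.890, 0.883–0.897) and 23524 against 26925 CPM in YS-Ex (0.874, 0.869–0.879). These cells had medians of 5953 and 6031 UMIs against 12554 and 11837.5, and among cells of 8000 to 16000 UMIs the log2 ratios were -0.05 and -0.09 in place of -0.17 and -0.19. Mast cell markers summed to 39510 against 27797 CPM in Em-Ex and 50884 against 43736 CPM in YS-Ex, and the 5 erythroid markers to 232 against 850 CPM and 87.9 against 332 CPM. The 4 neutrophil progenitor markers summed to 40.5 against 457 CPM in Em-Ex and 4.10 against 51.1 CPM in YS-Ex, the basophil markers to 536 against 402 CPM and 524 against 361 CPM, and the macrophage markers to 135 against 187 CPM and 141 against 98.8 CPM. The megakaryocyte markers summed to 59.7 against 45.2 CPM and 52.0 against 67.4 CPM, and the stromal ones to 18.8 against 12.9 CPM in Em-Ex. The part of these cell types was not tested.

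By subunit 1 of 76 nuclear members was higher and 33 lower over 5% in Em-Ex, beside 20.3% and 29.9% of 4736 genes, and 1 of 74 was higher and 29 lower in YS-Ex, beside 18.6% and 16.9% of 4987 genes. At 1.5-fold 1 was higher and 11 lower in Em-Ex, beside 8.49% and 15.2%, and 0 were higher and 1 lower in YS-Ex, beside 4.47% and 5.07%. Median log2 ratios were -0.24 and -0.26 for the members and -0.07 and 0.01 for all genes tested. Ndufa6 was the higher member in both, with 776 and 480 CPM in Em-Ex (1.62, 1.54–1.70) and 714 and 564 CPM in YS-Ex (1.27, 1.22–1.31). Ndufa9 had 58.5 and 99.4 CPM in Em-Ex (0.588) and 38.8 and 61.3 CPM in YS-Ex (0.633), Atp5b had 599 and 943 CPM (0.635) and 353 and 508 CPM (0.695), and Atp5a1 had 316 and 497 CPM (0.636) and 223 and 329 CPM (0.677). Uqcrc1 had 132 and 204 CPM in Em-Ex (0.646), Ndufv1 50.1 and 76.7 CPM (0.654) and Cox7b 304 and 413 CPM in YS-Ex (0.735). Ndufaf4 had 27.2 and 46.8 CPM in Em-Ex (0.580). Cox4i2 had 8.77 and 34.9 CPM in Em-Ex (0.251), but it reached the level filter through the cells at no more than 5% alone, and its level over 5% rests on 21 UMIs in 5 cells, 13 of them in 1 cell. Cox6a2 had 19.2 and 56.1 CPM (0.343) and reached the level filter in the same way. Its level over 5% rests on 46 UMIs in 12 cells, 16 of them in 1 cell. Ndufv2 was lowest of the core subunits in YS-Ex, with 96.8 and 127 CPM (0.763). Nearer to 1 were Cox4i1 at 1246 and 1229 CPM in Em-Ex and 957 and 993 CPM in YS-Ex, Uqcrh at 947 and 792 CPM (1.20) and 973 and 898 CPM (1.08), and Atp5e at 717 and 645 CPM (1.11) and 825 and 795 CPM (1.04). Spearman's correlation between transcript length and log2 ratio was -0.46 over 76 members in Em-Ex and -0.42 over 74 in YS-Ex, and 0.25 and 0.44 over other genes. Of the lists, beside the shares over all genes given above, 5 of 6 complex II and cytochrome c genes were lower in the Em-Ex comparison and 4 of 6 in the YS-Ex comparison, and Slc25a5, the ATP and ADP carrier, had 474 and 859 CPM in Em-Ex (0.552) and 345 and 588 CPM in YS-Ex (0.587). Of 8 carriers 5 were lower in each library. Of 14 assembly factors tested in Em-Ex 1 was higher, Uqcc3 of complex III with 137 and 110 CPM (1.254), and 3 were lower, led by Atpaf2 with 19.2 and 29.1 CPM (0.660), while 0 of 12 passed in YS-Ex. Of the genes for mitochondrial DNA all 3 tested were lower in Em-Ex, led by Ssbp1 with 60.6 and 99.4 CPM (0.610), and 1 of 4 in YS-Ex, Tfam with 19.3 and 26.2 CPM (0.736). Of citric acid cycle genes 8 of 13 were lower and 1, Ogdh with 38.0 and 29.9 CPM (1.27), higher in Em-Ex, and 7 of 12 were lower in YS-Ex. Idh3a had 22.1 and 64.2 CPM in Em-Ex (0.345) and 14.7 and 31.6 CPM in YS-Ex (0.464).

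Along the mt- share the nuclear percentage was not a straight line. In YS-Ex nuclear members took 2.50% of UMIs outside mt- genes in the 74 cells up to 2% mt-, 2.80% in the 390 cells from 2 to 3%, 2.50% in the 560 cells from 5 to 7%, 2.20% in the 189 cells from 7 to 10% and 1.68% (1.65–1.71) in the 168 cells over 10%. In Em-Ex they took 3.09% up to 2%, 3.13% from 2 to 3%, 2.74% from 5 to 7%, 2.76% in the 51 cells from 7 to 10% and 2.60% (2.55–2.66) in the 52 cells over 10%. The lowest value in both libraries was thus over 10%, and Em-Ex was above YS-Ex in each of the 7 classes. Complex IV had the steepest step in YS-Ex, from 6407 CPM at 7 to 10% to 3913 CPM over 10%, where Em-Ex had 7876 and 7574 CPM. Median depth over 10% was 5304 UMIs in Em-Ex and 4602.5 in YS-Ex, and Cpa3-high cells made up 42.3% and 90.5% of these cells.

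**Figure D5:**
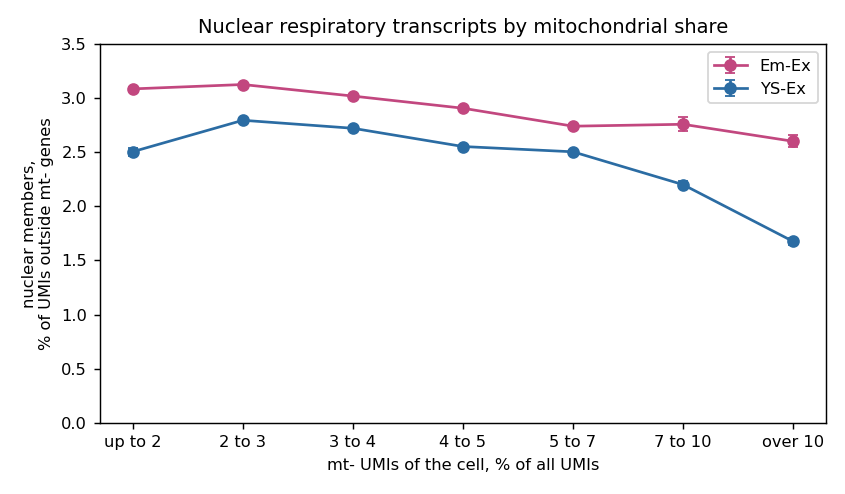
Summed nuclear members in % of UMIs outside mt- genes (vertical axis) by the mt- share of the cell in % (horizontal axis, classes of unequal width), for Em-Ex in pink and YS-Ex in blue. Points are pooled values with 95% counting intervals, Em-Ex lies above YS-Ex in every class, and YS-Ex ends at 1.68% over 10%.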

How the data were processed

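A pair of 10x single-cell libraries, 1 from Em-Ex and 1 from YS-Ex, was analysed. The authors deposited raw UMI counts per gene and cell for both in 1 table, without normalization. The submitters' processing notes name bcl2fastq 2.19.1.403, Cell Ranger 2.0.1 and the build mm10, and the gene annotation behind the counts is not given in the sources used here. All barcodes were used and doublets were not removed. The limits stated in the methods would keep 3071 Em-Ex and 2087 YS-Ex cells. Depth ran from 4120 to 68902 UMIs per Em-Ex cell and from 3272 to 47509 per YS-Ex cell.

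UMIs were summed over cells with Python 3.11.15, numpy 2.4.6, pandas 2.3.3 and scipy 1.17.1, and drawn with matplotlib 3.10.9. Levels have exact Poisson intervals, shares exact Clopper-Pearson intervals and ratios exact conditional binomial intervals, which cover counting error only. The ratios and their intervals were tried on simulated pooled Poisson counts, which hold no variation between cells. Lengths and positions are from GENCODE M21 (GRCm38), with the longest principal transcript for length, and promoters are from RefSeq (GRCm38.p6). Cells were thinned by drawing 3000 UMIs without replacement.

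The members and lists were chosen with earlier results of these data known. Named genes are all mt- members, the subunits with isoforms, in each complex the member of highest level and those of highest and lowest ratio in each comparison, members listed at 0 in 1 library, and the gene of each pathway list furthest past the limits in each direction. Others named as examples were chosen after their values were seen. Of the erythroid markers 1 is not reported here and is left out of the sums. Alternatives were the filter on cells of the methods, limits on depth and mt- share, other Cpa3 limits (20 and 80 per 10000), scaling by the median ratio, the denominator, the members summed, a 1.5-fold limit, and the filter on level. Restricting to Cpa3-high cells and leaving shared barcodes out of the isoform shares were chosen after seeing the data.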

Additional observations from a re-analysis of the deposited data

Results flagged for a closer look

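Ndufb3, a small membrane subunit of complex I, was the member whose ratio of Cpa3-high to Cpa3-low cells lay on opposite sides of 1 in the libraries with counting intervals that leave out 1 in both. It had 172 CPM in Em-Ex Cpa3-high cells and 188 CPM in Em-Ex Cpa3-low cells, a ratio of 0.919 (0.880–0.961). In YS-Ex it had 181 CPM in Cpa3-high and 161 CPM in Cpa3-low cells, a ratio of 1.12 (1.01–1.246). Neither ratio passed the limits for a higher or lower member, and the difference between the libraries was not tested.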

How the results depend on the processing

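With 1 library per tissue, leaving out a replicate was not possible, and no value here measures how libraries of 1 tissue vary. No paired analysis was possible because each group had 1 sample and the labels carry no replicate numbers. Of 130 alternative values, 65 moved by less than their counting interval or by less than 1.5 times for a count, and the others moved by more or changed sign, and the cause was not tested. Few UMIs limit the isoform shares in YS-Ex Cpa3-low cells, where Cox6a2 took 6.77% (5.57–8.13). Log2 ratios follow, with counts over all members except in the comparisons over 5%, where mt- genes were left out. The mt- share by library was -0.35, and it became -0.18 with the cell filter of the methods, -0.26 in cells of 8000 to 16000 UMIs, -0.31 at no more than 10% mt- UMIs, -0.41 as a mean over cells and -0.34 in Cpa3-high cells. The nuclear sum by library was 0.21 and became 0.18, 0.17 and 0.20 under the first 3 of these, 0.17 in Cpa3-high cells, 0.17 with median ratio scaling, 0.22 over all UMIs and 0.21 without Cox8a. The mt- share of Em-Ex Cpa3-high to Cpa3-low cells was 0.054 and became 0.031 with the cell filter, -0.013 in cells of 8000 to 16000 UMIs, 0.094 at no more than 10% mt-, 0.022 as a mean over cells, 0.086 and 0.072 at Cpa3 limits of 20 and 80, and 0.0066 without cells with Mpo. The nuclear sum of the same cells was -0.095 and became -0.072, 0.0024 and 0.094 with the cell filter, in cells of 8000 to 16000 UMIs and with median ratio scaling, -0.069 as a mean over cells, -0.10 and -0.12 at the Cpa3 limits, and -0.076 without cells with Mpo. In YS-Ex the mt- share of Cpa3-high to Cpa3-low cells was 0.13 and became 0.16 with the cell filter, 0.12 without shared barcodes, 0.22 in cells of 8000 to 16000 UMIs, 0.19 at no more than 10% mt-, 0.082 as a mean over cells, 0.17 and -0.0028 at Cpa3 limits of 20 and 80, and 0.11 without cells with Mpo. The nuclear sum there was 0.0057 and became 0.035, 0.040, -0.019, 0.021, 0.021 and 0.098 with the cell filter, in cells of 8000 to 16000 UMIs, at the Cpa3 limits of 20 and 80, without cells with Mpo and with median ratio scaling. Over 5% mt-, the nuclear sum in Em-Ex was -0.17 and became -0.050 in cells of 8000 to 16000 UMIs, -0.13 as a mean over cells, -0.098 with median ratio scaling and -0.23 over all UMIs, and in YS-Ex it was -0.19 and became -0.089 in cells of 8000 to 16000 UMIs, -0.21 with median ratio scaling and -0.25 over all UMIs. With the cell filter Cox4i2 took 5.41% of its family in Em-Ex Cpa3-low cells, and Cox6a2 took 16.5% there and 5.30% in YS-Ex Cpa3-low cells. At 1.5-fold, 16 members were higher and 5 lower by library in place of 34 and 12, 7 were lower in Em-Ex Cpa3-high cells in place of 26, 3 were higher and 1 lower in YS-Ex Cpa3-high cells in place of 5 and 5, 11 were lower over 5% in Em-Ex in place of 33, and 0 were higher and 1 lower over 5% in YS-Ex in place of 1 and 29. Median ratio scaling gave 13 higher and 12 lower in Em-Ex Cpa3-high cells, 9 higher in YS-Ex Cpa3-high cells and 3 higher over 5% in Em-Ex. In YS-Ex Cpa3-high cells 8 were lower at a level of 5 CPM or with no filter on level, and 2 with the cell filter.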
